A study of Mus musculus with 32 samples.

Results

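Poly(ADP-ribose) polymerases (PARPs) and Dtx3l were followed in YUMM3.3 cells, a mouse melanoma line with mutant Braf, by BRB-seq, in which the RNA of each well gets a barcode before all wells are sequenced as 1 pooled library. The 10 genes Parp1, Parp2, Parp3, Parp8, Parp9, Parp10, Parp11, Parp12, Parp14 and Dtx3l were taken by symbol from the 12451 genes of the count table, and all 10 were present and tested at both times. The 32 wells formed 8 groups of 4: untreated cells, cells given 40 ng/ml Activin-A, cells given 20 ng/ml IFN-γ, and cells given both factors at these doses, each for 4 or 12 hrs. The legends of the study name a higher Activin-A dose for some of its displays, and the dose printed here is that of the sample labels. All wells came from a single cell line seeded in 6-well plates, so that p-values measure the spread between wells of that line. Replicate 1 of Activin-A at 4 hrs, the well with the highest total (1455074 counts), stood apart. Over genes it differed from the other 3 wells of its group by a chi-square per degree of freedom of 2.60 to 3.07, against 1.17 to 1.59 for all other pairs of wells within groups. Values without it are given beside the results it moves.

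PARPs transfer ADP-ribose from NAD to proteins. Parp1 and Parp2 are nuclear enzymes that are switched on by DNA breaks and build long ADP-ribose chains, and Parp3 also acts at breaks. Parp10, Parp11, Parp12 and Parp14 attach single ADP-ribose units and Parp9 is paired with the E3 ubiquitin ligase Dtx3l. Parp9, Dtx3l, Parp12 and Parp14 are known as interferon-induced genes with antiviral roles. Interferon signals reach such genes through transcription factors that bind GAS and ISRE elements near gene starts. Parp8 is a less studied member of the family. The comparison between the interferon-linked genes and the repair enzymes Parp1 and Parp2 runs through all groups below.

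Promoter windows were read from RefSeq (build GRCm38.p6) to show the sequence at the starts of the genes that answered to IFN-γ. Each window holds 250 bases before to 50 bases after a start, and 7 of the 10 genes had one, Parp11 having a pair. Parp9, Parp10 and Parp14 had none. Both strands of the 8 windows were searched for GAS (TTCNNNGAA) and for the ISRE core (GAAA, any 2 bases, GAAA). Of all 32851 mouse windows, 8.3% hold GAS, 3.44% hold the ISRE core and 11.3% hold either. Only the upstream window of Parp11, chr6:127446590-127446889 on the forward strand, held a match. Its ISRE core was matched on the reverse strand at -44 to -35 from the start, its GAS at -37 to -29, and the 2 matches overlap. The windows shown are that one, with the matched bases in capitals, the second Parp11 window (chr6:127453377-127453676, forward strand) and the Dtx3l window (chr16:35938978-35939277, reverse strand), in which these letters were not found. They are shown because Parp11 and Dtx3l are both among the genes called higher below. A match describes letters, not a bound site, and a window without one says nothing of sites elsewhere.
Parp11 upstream window: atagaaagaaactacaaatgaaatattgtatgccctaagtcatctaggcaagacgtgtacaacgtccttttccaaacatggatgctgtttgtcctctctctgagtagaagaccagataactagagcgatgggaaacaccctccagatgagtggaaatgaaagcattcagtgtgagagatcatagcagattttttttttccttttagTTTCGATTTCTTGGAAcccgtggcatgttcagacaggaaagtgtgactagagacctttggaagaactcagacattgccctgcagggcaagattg
Parp11 second window: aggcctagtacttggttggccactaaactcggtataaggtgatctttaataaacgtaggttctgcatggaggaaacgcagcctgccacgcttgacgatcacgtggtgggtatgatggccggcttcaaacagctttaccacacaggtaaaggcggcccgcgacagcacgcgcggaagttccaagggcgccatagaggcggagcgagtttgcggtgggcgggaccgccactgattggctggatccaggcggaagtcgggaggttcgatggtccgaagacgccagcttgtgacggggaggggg
Dtx3l window: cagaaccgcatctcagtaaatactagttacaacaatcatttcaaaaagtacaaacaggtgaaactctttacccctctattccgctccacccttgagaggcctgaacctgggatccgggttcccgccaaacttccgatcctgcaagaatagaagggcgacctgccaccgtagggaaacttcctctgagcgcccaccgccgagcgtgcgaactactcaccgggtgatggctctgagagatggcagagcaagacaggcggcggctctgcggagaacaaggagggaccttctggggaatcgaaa

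Treatment with IFN-γ for 4 hrs raised 7 of the 10 genes: Parp14, Parp9, Dtx3l, Parp10, Parp12, Parp3 and Parp11. The same 7 genes were higher at 12 hrs, and again at both times when cells given both factors were compared with cells given Activin-A alone. Parp2 and Parp8 passed the test in none of these 4 comparisons, and Parp1 passed it once, as lower, at 12 hrs. By edgeR's quasi-likelihood test, 4.29% of the 9137 genes tested at 4 hrs were higher with IFN-γ and 0.766% were lower, and 6.43% and 2.82% of the 8971 genes tested at 12 hrs. With Activin-A in both arms, 4.41% were higher and 1.66% lower at 4 hrs, and 6.18% and 3.44% at 12 hrs. A gene was called at an adjusted p under 0.05 (Benjamini-Hochberg over all genes tested). Levels are given in CPM, the counts scaled to a common total per well, as mean ± SD of 4 wells. In bulk RNA, fewer cells making a transcript and less transcript per cell cannot be told apart.

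In each of the 4 comparisons all 4 wells with IFN-γ lay above all 4 wells without it for the same 7 genes. Such a separation was found for 6.04% of tested genes in IFN-γ against untreated cells at 4 hrs and for 7.88% at 12 hrs, and for 6.19% and 7.12% with Activin-A in both arms. Over the whole series, the 16 wells with IFN-γ lay above the 16 wells without it for 7 of the 10 genes, against 2.01% of 9332 genes. The gap was narrow for Parp11, whose lowest well with IFN-γ was at 25.7 CPM and whose highest well without it was at 23.8 CPM. It was wide for Parp9, at 143 against 26.1 CPM. The wells of Parp1, Parp2 and Parp8 overlapped.

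**Figure D1:**
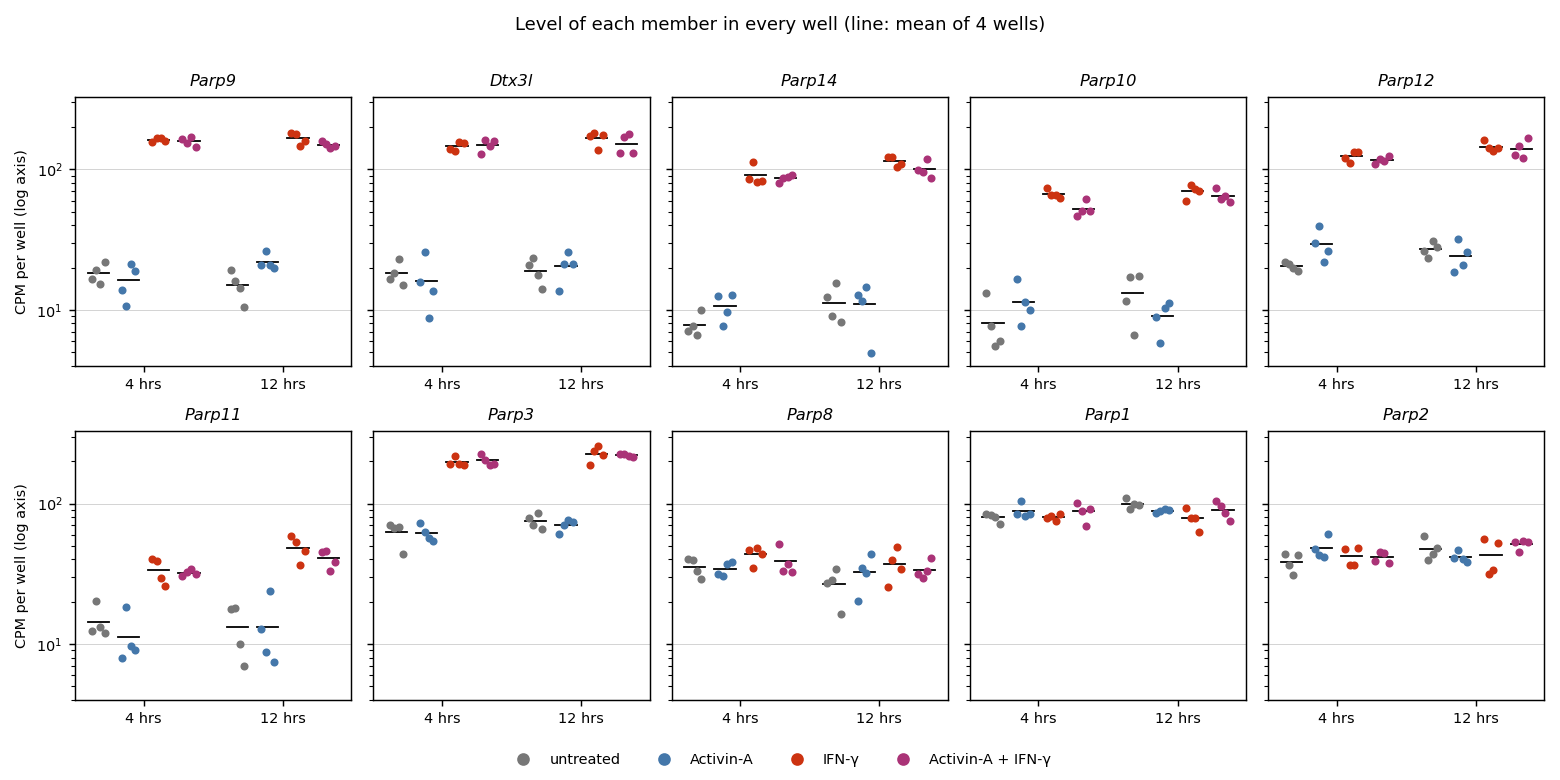
Level of each gene in every well, in CPM on a log axis, for the 4 treatments at 4 and 12 hrs; each point is a well and each line the mean of 4 wells. The wells with IFN-γ stand above the others for Parp9, Dtx3l, Parp14, Parp10, Parp12, Parp11 and Parp3, and are mixed with them for Parp8, Parp1 and Parp2.

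Parp9, whose macrodomains bind ADP-ribose, had the lowest p of the 10 genes at 4 hrs and at 12 hrs. At 4 hrs its wells read 16.7, 19.2, 15.4 and 22.0 CPM untreated and 158, 167, 166 and 159 CPM with IFN-γ. These wells were set far apart and varied little within each group. The log2 fold change was 3.15 (SE 0.15, adjusted p = 4.36e-26). At 12 hrs Parp9 rose from 15.1 ± 3.67 to 167 ± 17.2 CPM, a log2 fold change of 3.41 (SE 0.15, adjusted p = 6.08e-39). With both factors it stood at 159 ± 12.0 CPM at 4 hrs and 150 ± 7.83 CPM at 12 hrs, against 16.2 ± 4.77 and 21.9 ± 2.86 CPM with Activin-A alone. Those are log2 fold changes of 3.25 and 2.77.

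Dtx3l, the ubiquitin ligase that forms a complex with Parp9, also rose in all 4 comparisons. Its 4 untreated wells at 4 hrs read 16.7, 18.3, 23.1 and 15.0 CPM, and the IFN-γ wells 140, 135, 157 and 155 CPM. The groups did not overlap. Its log2 fold change was 3.02 (SE 0.16, adjusted p = 1.66e-23) at 4 hrs and 3.10 (SE 0.15, adjusted p = 2.23e-35) at 12 hrs, when the mean with IFN-γ was 167 ± 19.7 CPM. Against Activin-A alone, both factors gave 3.31 and 2.93. The ratio of Parp9 to Dtx3l counts was 1.05 ± 0.33 in untreated wells and 1.11 ± 0.093 in IFN-γ wells at 4 hrs, and 0.80 ± 0.10 and 1.00 ± 0.067 at 12 hrs. Over the 8 groups the mean ratio ran from 0.80 to 1.27. At 12 hrs the untreated wells ran from 0.69 to 0.93, the wells with IFN-γ alone from 0.91 to 1.05 and those with both factors from 0.80 to 1.23, so that the groups overlapped. The widest spread was with Activin-A alone at 4 hrs (1.27 ± 0.85), where wells ran from 0.41 to 2.4 and 1 well held 7 Parp9 reads.

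Parp14, a large macrodomain PARP that adds single ADP-ribose units, had the largest log2 fold change of the 10 genes in IFN-γ against untreated cells at 4 hrs. Its wells read 7.03, 7.70, 6.59 and 9.99 CPM untreated and 85.7, 113, 80.8 and 82.3 CPM with IFN-γ. The second IFN-γ well stood above the other 3, and the untreated wells held only 6 to 10 reads each. This was a log2 fold change of 3.54 (SE 0.20, adjusted p = 3.63e-22). At 12 hrs it was 3.33 (SE 0.18, adjusted p = 1.31e-31), from 11.2 ± 3.33 to 115 ± 9.14 CPM. The values with Activin-A in both arms were 2.95 at 4 hrs and 3.13 at 12 hrs.

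Parp9, Dtx3l and Parp14 lie together on chromosome 16. In the GENCODE M21 annotation (GRCm38), Parp9 (ENSMUSG00000022906, chr16:35938470-35972605, forward strand) and Dtx3l (ENSMUSG00000049502, chr16:35926511-35939151, reverse strand) start head to head and share 682 bases. Parp14 (ENSMUSG00000034422, chr16:35832874-35871544, reverse strand) begins 67.61 kb from the Dtx3l start. These positions describe the annotation at hand, whereas the submitters' processing notes name GRCm39. Of the genes beside them, 3 were tested at 4 hrs and 2 at 12 hrs, and 0 passed the test by edgeR or DESeq2; at 12 hrs 1 of them, Fam162a, had an unadjusted p under 0.05. Kpna1, an importin next to Parp9, differed by 0.076 (SE 0.17) on the log2 scale at 4 hrs and by -0.18 (SE 0.20) at 12 hrs. Fam162a differed by 0.089 (SE 0.091) and 0.16 (SE 0.081, unadjusted p = 0.0486), and Hspbap1, on the far side of Parp14, by -0.53 (SE 0.46) at 4 hrs.

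**Figure D2:**
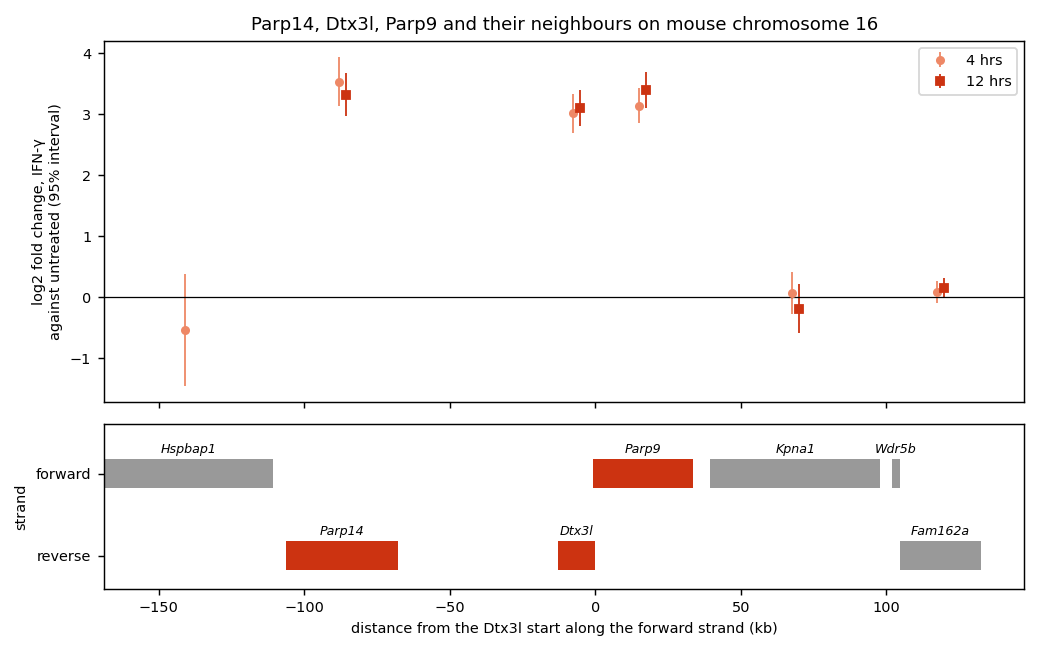
Upper panel, log2 fold change with its 95% confidence interval for IFN-γ against untreated cells at 4 and 12 hrs, placed at the middle of each gene; lower panel, the gene bodies by strand, in kb from the Dtx3l start. Parp14, Dtx3l and Parp9 lie at about 3 or above on the log2 scale, and the tested neighbours lie near 0 apart from Hspbap1 at -0.53, whose interval spans 0.

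Parp10, Parp12 and Parp11 are the other enzymes of this group that add single ADP-ribose units. Parp10 (chr15:76231174-76243441, reverse strand) read 13.2, 7.70, 5.49 and 5.99 CPM in untreated wells at 4 hrs and 73.5, 65.4, 66.1 and 62.6 CPM with IFN-γ. The untreated wells held 5 to 15 reads, so that its baseline is less well measured than its induced level. Parp10 rose by 2.99 on the log2 scale (SE 0.22, adjusted p = 4.42e-17) at 4 hrs and 2.40 (SE 0.19, adjusted p = 6.59e-20) at 12 hrs. Both factors against Activin-A gave 2.09 and 2.84. The last exon of Parp10 is overlapped on the same strand by Plec, the plectin gene, in the annotation, and the last exon of Parp9 by the antisense gene Gm15564, so that reads may be shared. Plec itself differed by -0.065 (SE 0.082) at 4 hrs and 0.042 (SE 0.057) at 12 hrs on the log2 scale with IFN-γ.

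Parp12, a zinc-finger PARP, read 22.0, 21.2, 19.8 and 19.0 CPM untreated and 121, 111, 132 and 134 CPM with IFN-γ at 4 hrs. The untreated wells were within a few CPM of each other. Parp12 rose by 2.60 on the log2 scale (SE 0.15, adjusted p = 1.03e-21) at 4 hrs and 2.42 (SE 0.14, adjusted p = 1.44e-29) at 12 hrs. The corresponding values with Activin-A present were 2.04 and 2.54. At 12 hrs its wells read 26.3, 23.3, 30.8 and 28.1 CPM untreated and 161, 141, 136 and 143 CPM with IFN-γ, again without overlap.

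Parp11, the gene whose upstream window held the overlapping letters shown above, had smaller log2 fold changes than Parp10 and Parp12 in all 4 comparisons. Its wells at 4 hrs read 12.3, 20.2, 13.2 and 12.0 CPM untreated and 40.4, 39.2, 29.4 and 25.7 CPM with IFN-γ. The highest untreated well came within a few CPM of the lowest treated one. At this time Parp11 rose by 1.22 on the log2 scale (SE 0.23, adjusted p = 8.63e-05). At 12 hrs the wells with IFN-γ read 58.2, 53.3, 36.7 and 45.7 CPM, and the log2 fold change was 1.79 (SE 0.22, adjusted p = 1.15e-10). The later value was the higher one, but the difference between the times, 0.58 on the log2 scale, had a 95% interval from -0.12 to 1.27 and did not pass the test (adjusted p = 0.793). In cells with Activin-A, Parp11 rose by 1.64 and 1.61.

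Parp3, a DNA-break PARP by function, was called higher in the same 4 comparisons as the interferon-linked genes, unlike Parp1 and Parp2. Its wells at 4 hrs read 70.3, 67.4, 68.1 and 44.0 CPM untreated and 191, 218, 191 and 188 CPM with IFN-γ. The lowest treated well was more than 100 CPM above the highest untreated one. Parp3 rose by 1.67 on the log2 scale (SE 0.12, adjusted p = 3.88e-18) at 4 hrs and 1.58 (SE 0.10, adjusted p = 1.16e-26) at 12 hrs. It rose by 1.70 and 1.67 in cells with Activin-A, so that its 4 values ran from 1.58 to 1.70.

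Parp1, the main break-sensing PARP, stood at 79.6 ± 6.01 CPM untreated and 79.8 ± 3.99 CPM with IFN-γ at 4 hrs, with a log2 fold change of 0.023 and a 95% interval from -0.23 to 0.27. At 12 hrs its wells read 109, 91.4, 99.1 and 97.0 CPM untreated and 93.4, 79.4, 78.9 and 63.2 CPM with IFN-γ. One treated well lay within the untreated range and the other 3 below it. The log2 fold change was -0.36 (SE 0.12, adjusted p = 0.0338). Both factors against Activin-A at 12 hrs gave 0.036 (95% interval from -0.20 to 0.27). The call of Parp1 was lost with DESeq2 (adjusted p = 0.193) and without untreated replicate 1 (0.175), untreated replicate 3 (0.0593), IFN-γ replicate 2 (0.0502) or IFN-γ replicate 4 (0.261), by edgeR. In untreated cells, Parp1 at 12 hrs minus 4 hrs was 0.32 on the log2 scale (SE 0.12, adjusted p = 0.0969), which did not pass the test.

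Parp2, the second break-sensing PARP, differed by 0.14 (95% interval from -0.20 to 0.48) at 4 hrs and by -0.15 (from -0.47 to 0.18) at 12 hrs on the log2 scale. Between both factors and Activin-A it differed by -0.21 (from -0.52 to 0.10) and 0.31 (from -0.026 to 0.64). Parp8 differed by 0.27 (from -0.083 to 0.62) at 4 hrs and 0.46 (from 0.066 to 0.86) at 12 hrs, and its p at 12 hrs did not survive adjustment (unadjusted p = 0.0228, adjusted p = 0.164, edgeR). Its wells at 12 hrs read 27.1, 28.7, 34.1 and 16.4 CPM untreated and 25.5, 39.7, 48.6 and 34.1 CPM with IFN-γ, and the groups overlapped.

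**Figure D3:**
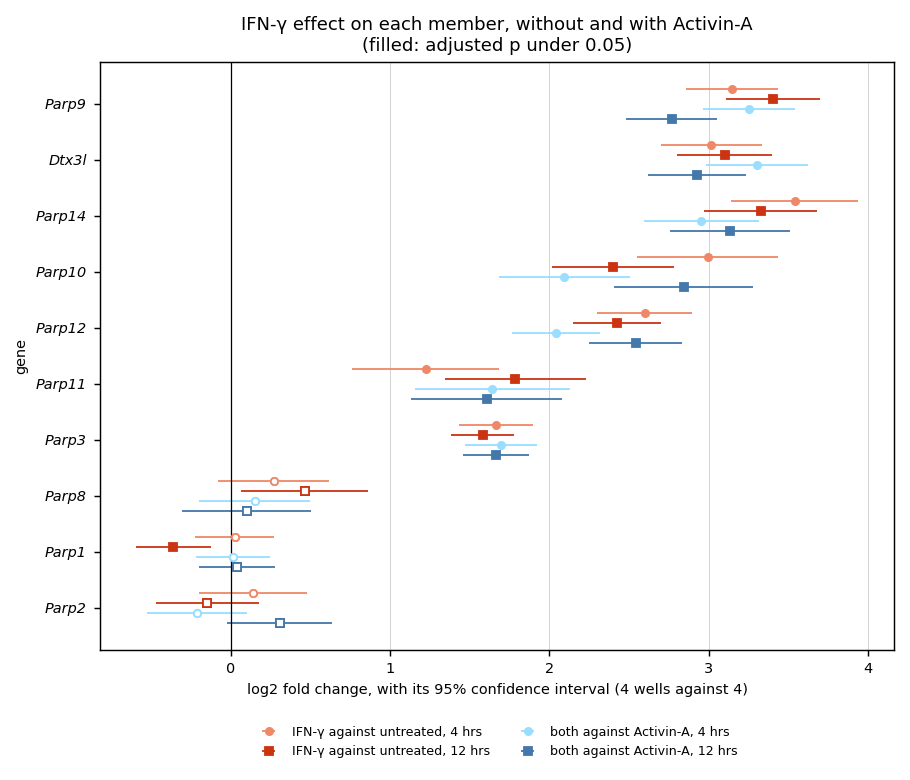
Log2 fold change of each gene with its 95% confidence interval, 4 wells against 4, for IFN-γ against untreated cells and for both factors against Activin-A, at 4 and 12 hrs; points mark the estimates. For 7 genes the intervals lie above 0 in all 4 comparisons, with estimates from 1.22 for Parp11 to 3.54 for Parp14, and the Parp1 and Parp2 estimates lie between -0.36 and 0.31.

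The sizes are set side by side here as a description, since each of the 6 genes compared with Parp1 and Parp2 had been called higher and Parp3 and Parp8 are left out. At 4 hrs the lowest bound of the intervals of Parp9, Parp10, Parp11, Parp12, Parp14 and Dtx3l was 0.76, for Parp11, and the highest bound of Parp1 and Parp2 was 0.48. At 12 hrs these bounds were 1.34 and 0.18. For both factors against Activin-A they were 1.16 and 0.25 at 4 hrs and 1.13 and 0.64 at 12 hrs. The summed CPM of these 6 genes was 0.74 ± 0.044 times that of Parp1 and Parp2 in untreated wells at 4 hrs and 5.14 ± 0.43 times with IFN-γ, and with both factors it was 4.63 ± 0.57, with wells from 4.00 to 5.38 against 4.68 to 5.66 with IFN-γ alone. At 12 hrs the ratio was 0.68 ± 0.097 untreated, 5.91 ± 0.74 with IFN-γ and 4.60 ± 0.40 with both factors. Wells given the combination, from 4.01 to 4.89, then all lay below those given IFN-γ alone, from 5.07 to 6.82. Both parts of the ratio differed at 12 hrs. The sum of the 6 genes overlapped, from 627 to 675 CPM with both factors and 634 to 757 CPM with IFN-γ alone. The mean sum of Parp1 and Parp2 was 142 CPM with both factors and 122 CPM with IFN-γ alone. At 4 hrs the sum of the 6 genes ran from 561 to 615 CPM and from 618 to 632 CPM. No member was called for both factors against IFN-γ at either time (edgeR). The differences in the ratio and in these sums were not tested.

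For Activin-A, 0 of the 10 genes passed the test by edgeR. Against untreated cells it changed 1.64% of all genes tested at 4 hrs and 2.41% at 12 hrs, and added to IFN-γ it changed 0.81% and 1.03%. DESeq2 also called 0 of the 10 in each of these comparisons. At an unadjusted p under 0.05, edgeR gave 2 genes at 4 hrs and 1 at 12 hrs for Activin-A alone, and 1 and 0 when it was added to IFN-γ. Over all genes tested, 1028 of 9137 and 1017 of 8971 genes had such a p for Activin-A alone and 850 and 921 when it was added, so that the members' counts are near the background. At 4 hrs Parp12 read 29.7, 39.8, 22.0 and 26.3 CPM with Activin-A and from 19.0 to 22.0 CPM untreated. Its log2 difference was 0.47 (SE 0.20, unadjusted p = 0.0202, adjusted p = 0.302, edgeR). Parp2, the other gene, differed by 0.32 (SE 0.16, unadjusted p = 0.0479). Without the Activin-A well that stood apart, 0 of the 10 genes were called, and the log2 difference of Parp10 at 4 hrs was 0.27 in place of 0.55, and without untreated replicate 1 it was 0.91. That of Parp2 was 0.19 without Activin-A replicate 4. At 12 hrs Parp9 stood at 21.9 ± 2.86 CPM with Activin-A and 15.1 ± 3.67 CPM untreated. Its log2 difference was 0.49 (SE 0.23, unadjusted p = 0.0359, adjusted p = 0.379, edgeR). Parp1 at 12 hrs stood at 88.7 ± 2.68 CPM with Activin-A and 99.1 ± 7.33 CPM untreated. The log2 difference of Parp1 was -0.17 (SE 0.11, adjusted p = 0.614, edgeR).

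With IFN-γ present, the intervals of the Activin-A effect were narrower for the 7 genes, whose counts were then higher. At 12 hrs both factors against IFN-γ alone gave -0.15 for Parp9 (95% interval from -0.34 to 0.045), -0.19 for Parp14 (from -0.42 to 0.048) and -0.13 for Dtx3l (from -0.33 to 0.070). The estimates ran from -0.24 for Parp11 to 0.25 for Parp2, and over the alternatives from -0.33 to -0.15 and from 0.13 to 0.38. At 4 hrs Parp10 read 46.4, 50.4, 61.9 and 50.5 CPM with both factors and from 62.6 to 73.5 CPM with IFN-γ alone. Its log2 difference was -0.35 (SE 0.15, unadjusted p = 0.0237, adjusted p = 0.397, edgeR). Its interval, from -0.65 to -0.048, is not adjusted for the number of genes.

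**Figure D4:**
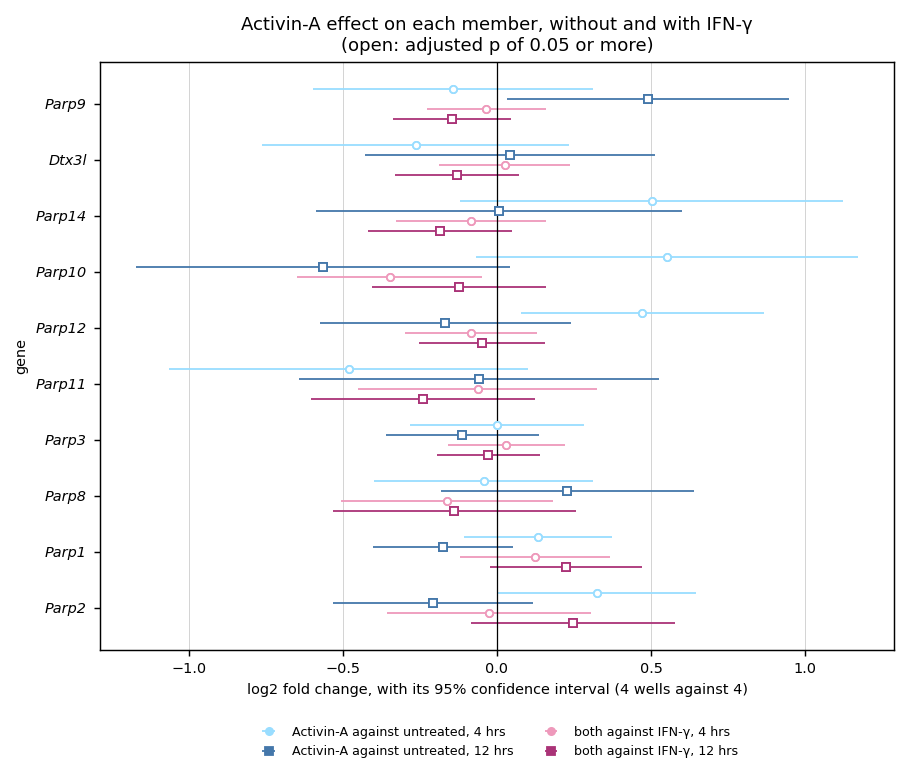
Log2 fold change of each gene with its 95% confidence interval, 4 wells against 4, for Activin-A against untreated cells and for both factors against IFN-γ, at 4 and 12 hrs; points mark the estimates. All points are open, since no adjusted p was under 0.05, and they range from -0.57 to 0.55, both for Parp10 with Activin-A alone.

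The interaction asks whether Activin-A altered the response to IFN-γ, and 0 of the 10 genes passed it at either time with edgeR or DESeq2. Over all genes, edgeR called 0% at 4 hrs and 0.0111% at 12 hrs, and DESeq2 called 0 genes at both times. At an unadjusted p under 0.05, edgeR gave 2 of the 10 genes at each time, against 505 of 9137 and 612 of 8971 genes tested. At 4 hrs these were Parp10 (-0.90 on the log2 scale, SE 0.34, adjusted p = 0.824) and Parp12 (-0.56, SE 0.22, adjusted p = 0.824). Without Activin-A replicate 1 they were -0.61 and -0.51, with 0 of the 10 genes called, and over all alternatives they ran from -1.26 to -0.61 and from -0.66 to -0.44. At 12 hrs they were Parp9 (-0.64, SE 0.25, adjusted p = 0.554) and Parp1 (0.40, SE 0.17, adjusted p = 0.63). These estimates share their wells with the comparisons above.

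The IFN-γ effect at 12 hrs minus that at 4 hrs passed the test for 0 of the 10 genes with edgeR and with DESeq2, against 0.579% of all genes with edgeR. It ran from -0.58 for Parp10 to 0.58 for Parp11. The Parp10 value was -0.94 without untreated replicate 1 at 4 hrs, and the Parp11 value was 0.37 without untreated replicate 2 at 4 hrs. Over all genes, 689 of 9332 had an unadjusted p under 0.05 in this comparison, and the 1 gene of the 10 that did was Parp1 (-0.37, SE 0.17, unadjusted p = 0.0323, adjusted p = 0.607). Time alone changed 0 of the 10 genes in untreated cells by both tools, against 4.9% of all genes with edgeR. At an unadjusted p under 0.05 there were 4, Parp1, Parp3, Parp8 and Parp10, with log2 differences of 0.32, 0.26, -0.41 and 0.66, against 1637 of 9332 genes tested. Without untreated replicate 4 at 4 hrs the Parp3 difference was 0.13, without untreated replicate 4 at 12 hrs that of Parp8 was -0.27, and without untreated replicate 1 at 4 hrs that of Parp10 was 1.02.

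Genes that feed or read the same chemistry were counted next, in IFN-γ against untreated cells unless stated. Of all genes tested, 5.06% were called in either direction at 4 hrs and 9.25% at 12 hrs, and 1217 of 9137 and 1672 of 8971 had an unadjusted p under 0.05, so that a count of 0 in a short list is near the background. Of the other PARP genes, 2 of 7 tested were higher at 4 hrs and 1 of 6 at 12 hrs. Zc3hav1, the antiviral zinc-finger protein also named PARP13, rose by 0.68 (SE 0.11, adjusted p = 7.73e-06) at 4 hrs and 0.62 (SE 0.11, adjusted p = 2.01e-06) at 12 hrs. Parp4, the vault PARP, rose by 1.28 (SE 0.32, adjusted p = 0.00599) at 4 hrs, at 6.84 ± 2.99 CPM untreated and 17.3 ± 3.97 CPM treated, and differed by 0.33 (SE 0.29) at 12 hrs. Its untreated wells at 4 hrs held 3 to 10 reads. With Activin-A in both arms at 4 hrs it differed by 0.89 (SE 0.30, adjusted p = 0.0697) and was not called, and Zc3hav1 was the 1 gene of 7 that was. The median log2 fold change of this list was 0.11 at 4 hrs and 0.29 at 12 hrs, against -0.0066 and -0.0098 over all genes tested. With Activin-A in both arms it was -0.025 and 0.012, against -0.012 and -0.0075.

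Of the enzymes that remove ADP-ribose, 0 of 4 tested passed at either time, and of the other Deltex genes 0 of 2. Parg, the chain-cutting glycohydrolase, differed by -0.0063 (SE 0.23) at 4 hrs and -0.43 (SE 0.22, adjusted p = 0.294) at 12 hrs. Of the partners of Parp1 and Parp2 in break repair, 0 of 12 passed at 4 and at 12 hrs. Hpf1, which steers both enzymes to serine, differed by -0.16 (SE 0.12) and -0.013 (SE 0.11), and Xrcc1, the scaffold recruited by ADP-ribose chains, by 0.20 (SE 0.14) and -0.024 (SE 0.14). DESeq2 also called 0 genes of these 3 lists at both times. With edgeR, in the same comparison, an unadjusted p under 0.05 was found for Polb (0.44, unadjusted p = 0.0474) at 4 hrs and for Apex1 (-0.19, unadjusted p = 0.0344) at 12 hrs. Apex1, an endonuclease that cuts at abasic sites, was the 1 of the 12 repair partners called with Activin-A in both arms at 12 hrs, where it fell by 0.29 (SE 0.089, adjusted p = 0.0229), a call lost with DESeq2 (adjusted p = 0.107).

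Nampt, the rate-limiting enzyme of NAD salvage, was the 1 gene of NAD synthesis called higher, out of 4 tested at 4 hrs and 5 at 12 hrs. It rose from 152 ± 24.8 to 342 ± 11.8 CPM at 4 hrs (log2 fold change 1.17, SE 0.089, adjusted p = 1.47e-16) and from 164 ± 8.21 to 353 ± 23.3 CPM at 12 hrs (1.11, SE 0.079, adjusted p = 2.35e-23). Both factors against Activin-A gave rises of 1.15 and 1.10. Nmnat2, which joins the nucleotide into NAD, fell by 0.80 on the log2 scale (SE 0.24, adjusted p = 0.0166) at 12 hrs, and fell by 0.83 with Activin-A in both arms. DESeq2 gave adjusted p of 0.0967 and 0.0535 for these, so that the calls of Nmnat2 were lost with it. Of the other NAD consumers, 0 of 5 tested, all sirtuins, passed at either time with edgeR or DESeq2. In IFN-γ against untreated cells 0 had an unadjusted p under 0.05, and with Activin-A in both arms Sirt6 differed by -0.42 at 4 hrs (unadjusted p = 0.0242, adjusted p = 0.213, edgeR).

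Of 12 genes that carry interferon signals, 6 were higher and 1 was lower at 4 hrs, and 7 were higher at 12 hrs. Irf1 rose by 4.22 (SE 0.093) and 3.96 (SE 0.089) on the log2 scale. Stat2 rose by 2.45 and 2.14 and Irf9, its DNA-binding partner, by 1.62 and 1.97. Ifngr2, a receptor chain for IFN-γ, fell by 0.42 (SE 0.11, adjusted p = 0.0117) at 4 hrs, a call lost with DESeq2 (adjusted p = 0.0521). The rise of Irf1 and Gbp2 (5.86 and 6.46) also checks the IFN-γ labels. DESeq2 called 5 of the 12 at each time. These lists were chosen with results of these data known.

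**Figure D5:**
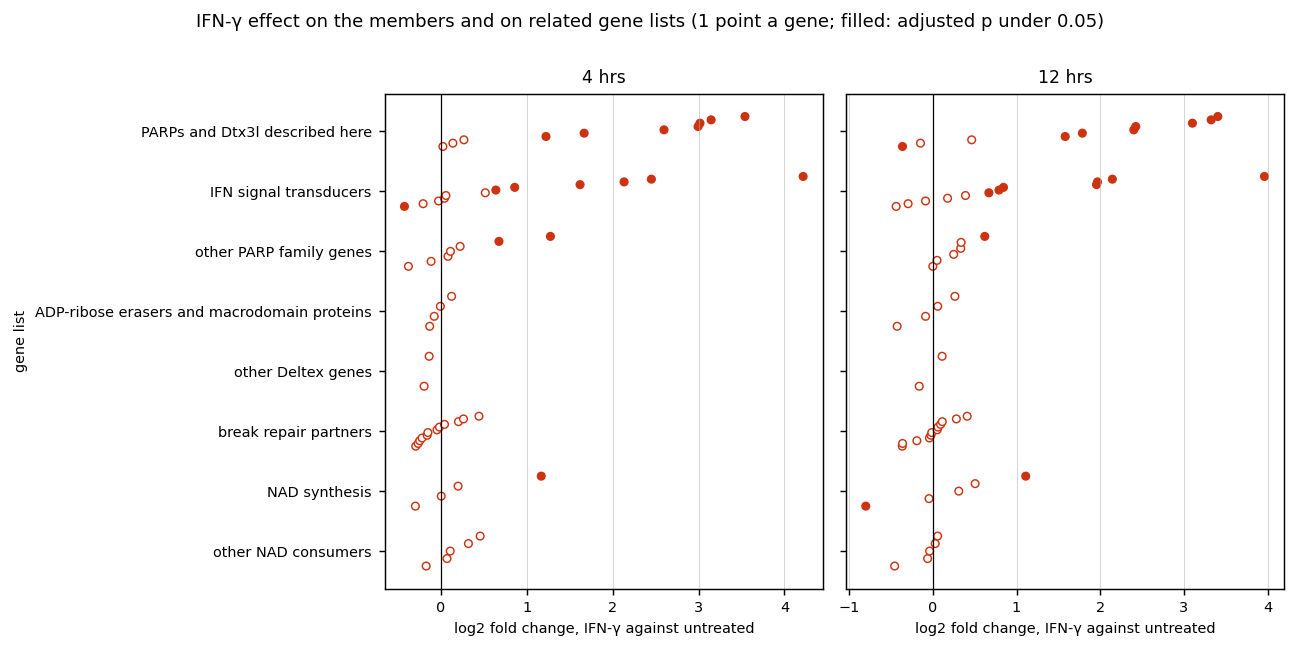
Log2 fold change of IFN-γ against untreated cells at 4 hrs (left) and 12 hrs (right), 1 point for each tested gene of each list; filled points have an adjusted p under 0.05. Filled points are found among the PARPs and Dtx3l described here, the interferon transducers, the other PARPs and NAD synthesis, and in none of the erasers, Deltex genes, repair partners or sirtuins.

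Genes with the most similar pattern over the 32 wells were sought among 9322 genes by Pearson's r of log2 CPM. For Parp9 these were Gbp2 (0.988), Irf1 (0.988) and Mndal (0.986), for Dtx3l they included Ifi47 and Tap1 (each 0.983), and for Parp14 they were Apol6 (0.986), Oasl2 (0.985) and Samhd1 (0.985). The wells with and without IFN-γ form 2 separate clusters that set these values. Among the 10 genes, Parp9 and Parp14 gave 0.976 and Parp3 and Dtx3l 0.974, whereas Parp1 and Parp2 gave 0.166. The nearest genes to Parp1 were Tsfm (0.651), Opn3 (0.625) and Bri3bp (0.619).

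Total counts per well ran from 654539 to 1455074. The melanoma identity was checked on lineage markers: Pmel had means of 116 to 134 CPM over the groups and Dct, Tyrp1 and Mlana were also read, while Ptprc, the pan-leukocyte marker, had means of 1.17 to 3.41 CPM and Pecam1, Cdh5 and Krt5 were not in the count table. None of the 8 melanocyte lineage markers tested at 4 hrs and 6 at 12 hrs passed in IFN-γ against untreated cells by edgeR or DESeq2, and 0 and 1 of them had an unadjusted p under 0.05. Of 4 fibroblast markers, 3 were in the count table and 2 were tested, Pdgfra with means of 9.85 to 15.4 CPM over the groups and Col1a1, a collagen that other cells also make, with 28.3 to 48.8 CPM, while Dcn had means of 0 to 2.68 CPM. Col1a1 fell by 0.80 on the log2 scale (adjusted p = 0.000433) in both factors against Activin-A at 12 hrs, where DESeq2 also called 1 gene of this list, and neither Pdgfra nor Col1a1 was called in the other 3 IFN-γ comparisons. Its part in the results was not tested.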

How the data were processed

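The authors sequenced a BRB-seq library of 32 wells and deposited a table of raw counts per gene. The submitters' processing notes name STAR 2.7.10b, featureCounts, DESeq2 1.36.0 and the build GRCm39. The gene annotation, the strand setting and the handling of molecular identifiers are not given in the sources used here, so that counts may include PCR copies. Gene symbols came from a reference table (12437 of 12451 IDs matched). Groups were taken from the sample labels. edgeR 4.0.16 (R 4.3.3) was run on the deposited counts with its default expression filter, TMM scaling and the quasi-likelihood test, on the 16 wells of each time, and on all 32 wells for comparisons between times. CPM are the deposited counts scaled to each well's TMM-adjusted total. Alternatives were DESeq2 1.42.0, other scaling and filters, an adjusted p of 0.01, a replicate block, a fit on all wells and leaving out each well. The steps were tested on simulated data. The genes named were all 10 members, the called or most typical genes of each list, and the 3 nearest patterns. The members and lists were chosen with earlier results of these data known. An item of the lists and of the nearest patterns is not reported here.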

Additional observations from a re-analysis of the deposited data

Results flagged for a closer look

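In 8 of the 80 combinations of gene and group, 1 well stood apart from the other 3 by Dixon's test, which flags about 1 in 20 groups by chance. With IFN-γ for 4 hrs, 1 well read 113 CPM for Parp14 against 80.8 to 85.7 CPM in the others, and the same well read 218 CPM for Parp3 against 188 to 191 CPM. In untreated cells at 4 hrs, 1 well read 20.2 CPM for Parp11 against 12.0 to 13.2 CPM, and another read 44.0 CPM for Parp3 against 67.4 to 70.3 CPM. With Activin-A for 4 hrs, the well with the lowest total read 104 CPM for Parp1 against 82.0 to 84.5 CPM and 18.4 CPM for Parp11 against 7.92 to 9.69 CPM. With Activin-A for 12 hrs, 1 well read 26.1 CPM for Parp9 against 19.8 to 20.9 CPM. With both factors for 12 hrs, 1 well read 45.1 CPM for Parp2 against 53.1 to 54.2 CPM.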

How the results depend on the processing

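The 7 genes called higher with IFN-γ kept their direction and their call in every alternative in which they were tested, each well left out in turn included. Requiring at least 10 counts in every sample left 4 of the 10 genes called in IFN-γ against untreated cells at 4 hrs, and 4 at 12 hrs, of which 3 were higher and Parp1 lower. It left 4 in both factors against Activin-A at 4 hrs and 3 at 12 hrs. Members with under 10 counts in a well without IFN-γ, untreated or with Activin-A, were then not tested. Leaving out 1 well gave 7 to 8 called genes in IFN-γ against untreated cells at 12 hrs and 7 in the other 3 IFN-γ comparisons. The Parp1 call at 12 hrs was lost in 4 of 8 such fits and with DESeq2 (-0.36, adjusted p = 0.193). Signs turned only near 0. Leaving out 1 well, the log2 fold change of Parp1 ran from -0.029 to 0.054 in IFN-γ against untreated cells at 4 hrs, and in both factors against Activin-A from -0.055 to 0.11 at 4 hrs and from -0.044 to 0.12 at 12 hrs. That of Parp8 ran from -0.0079 to 0.22 at 4 hrs and from -0.11 to 0.25 at 12 hrs in the latter comparison. Over the alternatives, uncalled values also moved without turning: Parp2 in IFN-γ against untreated cells ran from 0.050 to 0.22 at 4 hrs and from -0.28 to -0.0034 at 12 hrs, and in both factors against Activin-A at 4 hrs from -0.28 to -0.081. Parp8 in IFN-γ against untreated cells at 12 hrs ran from 0.31 to 0.59, and in both factors against IFN-γ at 12 hrs Dtx3l ran from -0.21 to -0.060 and Parp14 from -0.28 to -0.12. With a replicate block, 7 genes were called in both factors against Activin-A at each time and in IFN-γ against untreated cells at 4 hrs, and 8 in the latter at 12 hrs, as without it, and the block changed no other count of calls among the 10 genes. Same-numbered wells did not deviate together (mean r -0.000234 over 112 pairs), and the numbers were not taken to pair the wells. Depth limits the untreated levels of Parp10 and Parp14, which rest on 5 to 19 reads.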
